A study of Mus musculus with 6 samples.

Results

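The receptors for the interleukins and the colony-stimulating factors were taken from the gene names of the files by symbol, as the names that begin with Il, a number and r or with Csf1r, Csf2r or Csf3r, without *Il1rn*, which encodes a soluble blocker of the IL-1 receptor. The rule gave 46 of 26216 names. RNA was sequenced from LT/ST-HSCs, the long-term and short-term hematopoietic stem cells, sorted by FACS from the bone marrow of mixed chimeras in week 6 by the absence of lineage markers, Annexin-V and CD48 and the presence of sca1, c-kit and CD150. The chimeras were lethally irradiated Ly5.1/Ly5.2 mice that had received LSKs (Lin- sca1+ c-kit+ cells) of both genotypes together, so that *Ltbr*-/- and Ly5.1 cells had grown in the same recipients. *Ltbr*-/- cells lack the lymphotoxin β receptor (LTβR) through a deletion within the gene and carry CD45.2, and Ly5.1 cells carry an intact *Ltbr* and CD45.1, another form of *Ptprc*. The donors of *Ltbr*-/- replicates 1, 2 and 3 were 13, 10 and 10 to 13 weeks old, and those of each Ly5.1 replicate 7 to 13 weeks, and the part of age in the differences between genotypes was not tested. Cells of 6 chimeras were pooled to 3 replicates per genotype, so that the replicates are pools and not single mice. The p-values from limma, used below, also draw on the spread of other genes with similar mean values. They therefore do not measure the spread between the pools of a gene alone. The comparison asks which of these receptors the stem cells expressed and which differed when LTβR was missing.

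Cytokine receptors are built from shared parts. An α chain that recognizes one cytokine joins a signaling chain used by several: the common β chain for IL-3, GM-CSF and IL-5, the common γ chain for IL-2, IL-4, IL-7, IL-9, IL-15 and IL-21, and gp130 for IL-6, IL-11 and IL-27. These chains pass the signal to JAK kinases and STAT factors, whereas the IL-1 and IL-18 receptors signal through MyD88 and IRAK, the IL-17 receptors through Act1, and the CSF-1 receptor is itself a tyrosine kinase. In blood formation the receptors are known for coupling stem and progenitor cells to the factors that drive myeloid growth, lymphoid growth and emergency granulopoiesis.

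The deposited value of a gene was taken, from the values themselves, as 2 to the power of a regularized log, a scale that corrects for library size, draws weakly expressed genes toward their mean and does not correct for gene length. Its log2 was tested with limma in the 13108 names with the highest mean, and a gene passed at an adjusted p under 0.05 (Benjamini-Hochberg over all 13108) and was called when its fold, taken from the means of the log2 values, was also at least 1.5. *Ltbr* had values of 24.2, 26.4 and 23.1 in *Ltbr*-/- and 564, 549 and 522 in Ly5.1 cells (log2 fold change −4.47, standard error 0.08, adjusted p = 2.15e-32). Each sample had a median of 8.46 or 8.47 on the log2 scale. All 12 HSC markers examined were among the tested genes, with *Kit* at 5179 to 6103 and *Slamf1*, which encodes CD150, at 259.8 to 329 over the 6 samples, and of the 12 markers 2 were lower in *Ltbr*-/- cells, *Ly6a*, which encodes sca1 (log2 fold change −0.39), and *Meis1* (−0.23). Transcripts of other cell types were present in both genotypes, and bulk RNA cannot tell fewer cells of a type from less RNA per cell.

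Of the 46 receptor genes, 33 were expressed highly enough to be tested. Another 5, *Il13ra2*, *Il17rd*, *Il1rapl1*, *Il22ra1* and *Il23r*, were listed at 1 in every sample. The remaining 8 had values above 1 and below the lowest tested mean of 14.4. They included the α chains for IL-5 (*Il5ra*, 2.54 to 2.63), IL-7 (*Il7r*, 6.38 to 6.72) and IL-9 (*Il9r*, 10.0 to 10.7), which are known from eosinophils, lymphoid progenitors and mast cells, and with them *Il20ra*, *Il20rb*, *Il22ra2*, *Il28ra* and *Il1rapl2*, between 3.05 and 10.1. None of these 13 genes could be compared between genotypes.

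**Figure D1:**
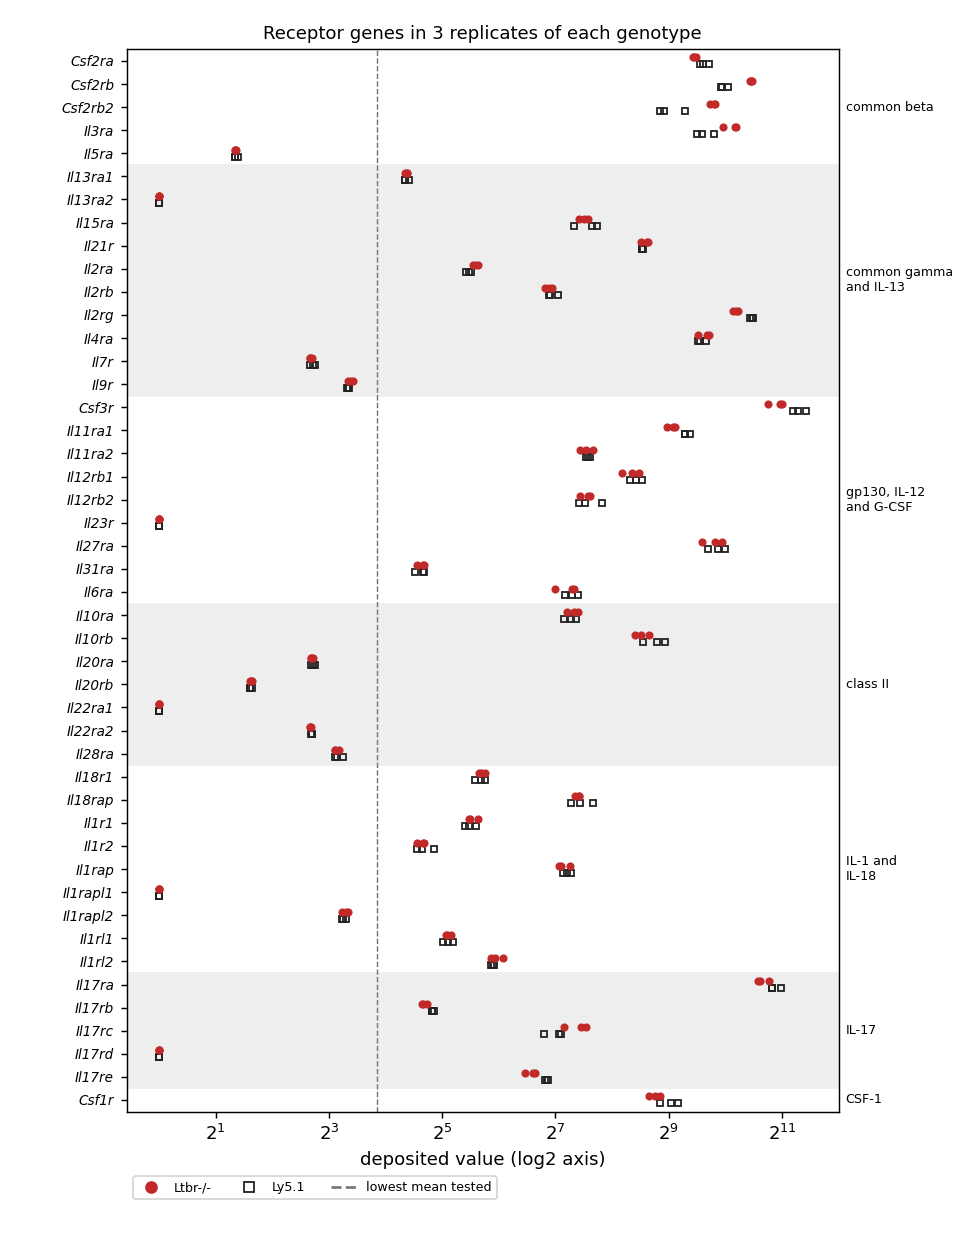
Deposited value (log2 axis) of the 46 receptor genes in the 3 *Ltbr*-/- replicates (red circles) and the 3 Ly5.1 replicates (open squares), grouped by receptor family, with the lowest mean tested as a dashed line. The SD was under 10% of the mean in both genotypes for 21 of the 33 tested genes, and 13 genes fell left of the line. The groups did not overlap in 13 of the tested receptor genes, against 30.4% of all tested genes. *Csf2rb*, *Csf2rb2*, *Il3ra* and *Csf3r* were among the 13.

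Levels were compared between genes as the value per kb of the longest protein-coding transcript. On this scale, as means over the 6 samples, 13 receptor genes lay above 121, the median of the tested genes with a known transcript length. *Csf2rb2* was among them at 149, with 186 per kb in *Ltbr*-/- cells and 111, below that median, in Ly5.1 cells. The common γ chain *Il2rg* was highest, at 772 over the 6 samples (percentile 89.9 of the tested genes), followed by the G-CSF receptor *Csf3r* at 641 (percentile 87.4). The next were the α chains for IL-3 (*Il3ra*, 410.1) and GM-CSF (*Csf2ra*, 402), the IL-27 receptor *Il27ra* (341) and the IL-11 receptor *Il11ra1* (292). The order differed between the genotypes in the places of several genes, and neighbouring ranks overlapped in part. *Csf2rb2* ranked 10 in *Ltbr*-/- and 15 in Ly5.1 cells, and *Csf2rb* ranked 6 and 9. *Il3ra* was the third highest in *Ltbr*-/- cells, at 476 ± 41.1 per kb (SD, n = 3), where its values overlapped those of *Csf3r* (554 ± 49.8) and lay above those of *Csf2ra* (379 ± 7.10). It was the fifth highest in Ly5.1 cells, at 344 ± 37.8 per kb, below *Csf2ra* (426 ± 24.1) and overlapping both *Il27ra* (350 ± 34.9) and *Il11ra1* (319 ± 12.5). At the other end *Il13ra1*, *Il1rl1*, *Il31ra* and *Il1r1*, which encode receptors for IL-13, IL-33, IL-31 and IL-1, had between 5.55 and 7.86 per kb.

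**Figure D2:**
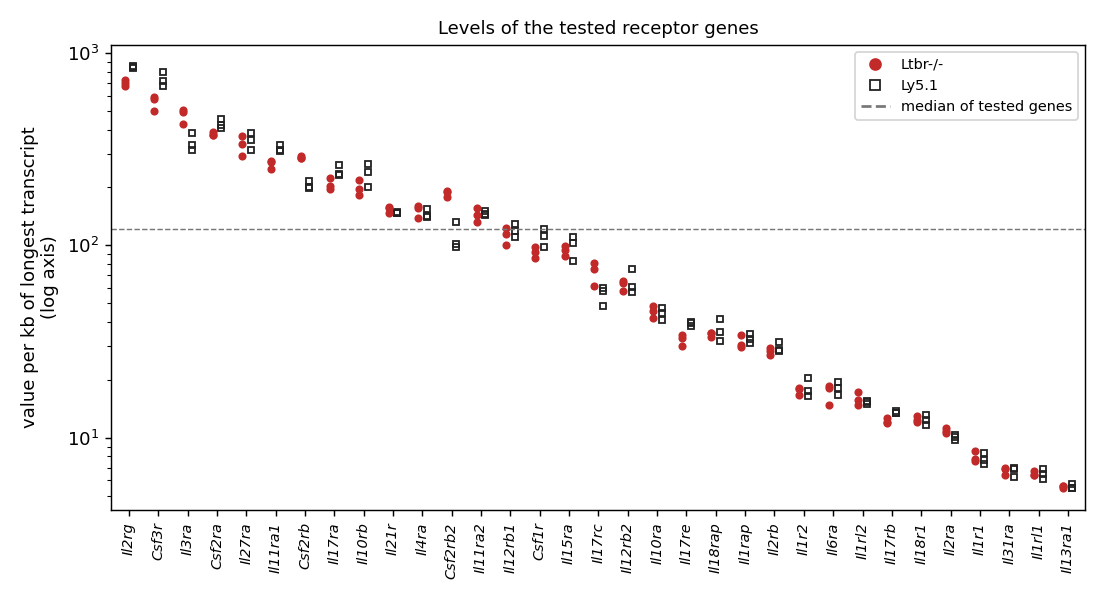
Value per kb of the longest transcript (log axis) of the 33 tested receptor genes, ordered by their mean over all samples, in the *Ltbr*-/- replicates (red circles) and the Ly5.1 replicates (open squares). The dashed line marks the median of the tested genes at 121, and *Il2rg* and *Csf3r* had the highest values in Ly5.1 cells.

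Of the 33 tested receptor genes, 1 was called, *Csf2rb2*, against 2.78% of all tested genes. At an adjusted p under 0.05 without the fold threshold 9 passed, which is 27.3%, against 14.8% of all tested genes. The 4 that rose in *Ltbr*-/- cells were *Csf2rb2*, *Csf2rb*, *Il3ra* and *Il17rc* (10.6% of all tested genes rose), and the 5 that fell were *Csf3r*, *Il2rg*, *Il11ra1*, *Il17re* and *Il17rb* (4.18% of all tested genes fell). Over all tested genes 1388 rose and 548 fell, a split that became 1246 and 914 after quantile normalization. The values of the genotypes did not overlap in 13 of the 33 receptor genes, against 30.4% of all tested genes, and for each of these the exact two-sided permutation test gave p = 0.1, the smallest that 3 against 3 samples allow. The median log2 fold change was −0.05 over the 33 receptor genes and −0.01 over all tested genes. Of the receptor genes 13 had estimates above 0 and 20 below, against 6079 and 7029 of all tested genes. The 24 receptor genes that did not pass had estimates between −0.27 and 0.11 and 95% intervals that all lay within a 1.5-fold difference, on a scale that understates the change of weakly expressed genes.

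**Figure D3:**
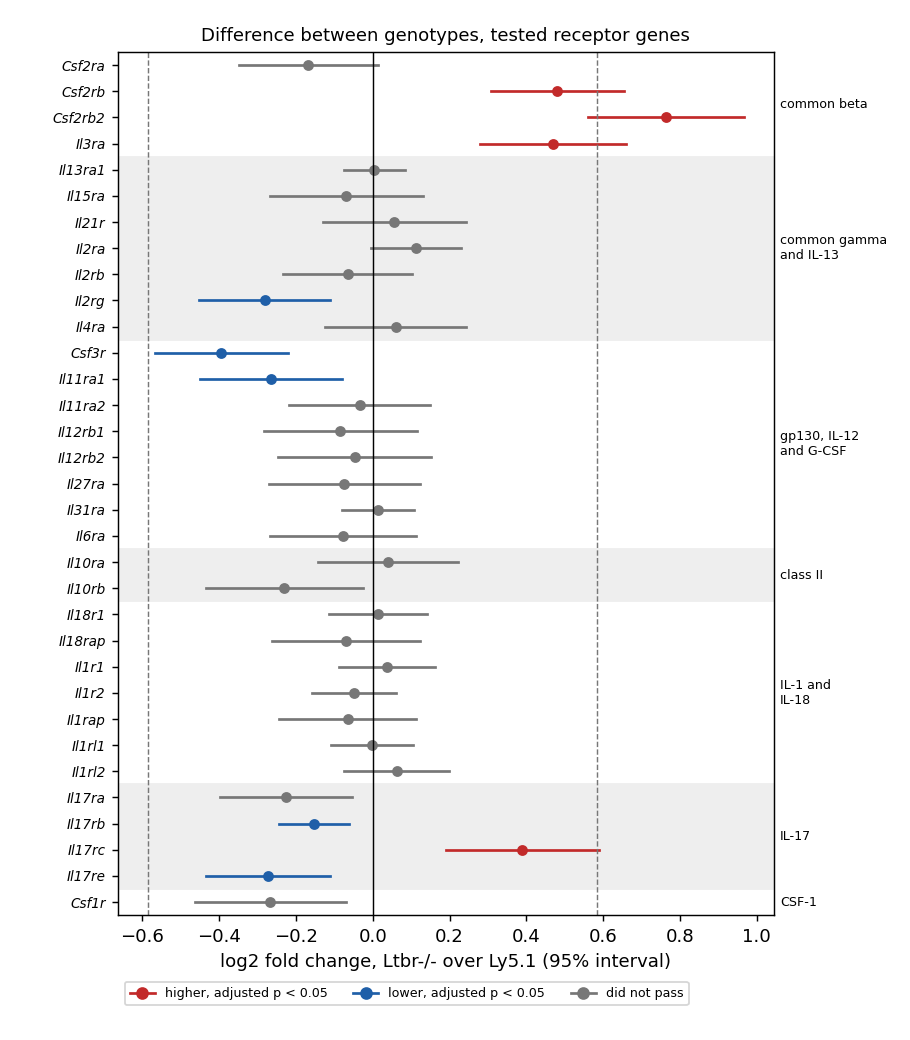
Log2 fold change of *Ltbr*-/- over Ly5.1 with its 95% interval from limma for the 33 tested receptor genes by family, red where higher and blue where lower at an adjusted p under 0.05, with dashed lines at a 1.5-fold difference. The genes farthest to the right are *Csf2rb2*, *Csf2rb*, *Il3ra* and *Il17rc*, and *Csf3r* is farthest to the left.

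**Figure D4:**
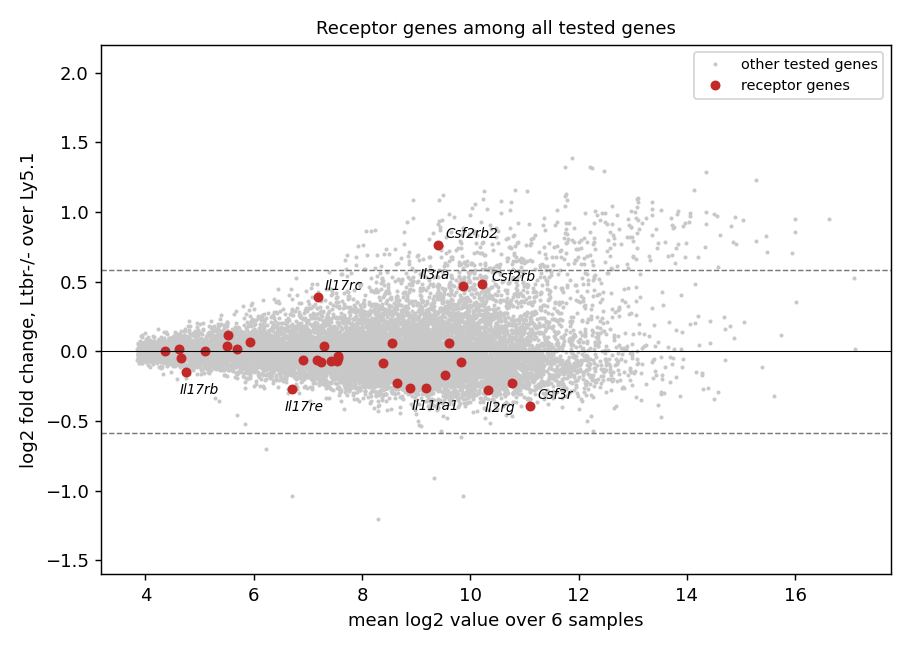
Log2 fold change of *Ltbr*-/- over Ly5.1 against the mean log2 value of all 13108 tested genes (gray), with the 33 receptor genes in red and those with an adjusted p under 0.05 named; 2 genes lie outside the plotted range. *Csf2rb2* is the receptor gene beyond the dashed 1.5-fold line.

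The signaling chains of the IL-3 and GM-CSF receptors were higher in *Ltbr*-/- LT/ST-HSCs. The mouse has a pair of them, *Csf2rb*, the common β chain of the IL-3, GM-CSF and IL-5 receptors, and *Csf2rb2*, the β chain that serves IL-3 alone. *Csf2rb2* had values of 894, 906 and 849 in *Ltbr*-/- and 463, 483 and 629 in Ly5.1 cells. All *Ltbr*-/- values lay above all Ly5.1 values, and Ly5.1 replicate 3 stood above the other Ly5.1 replicates. The means were 883 ± 29.8 and 525 ± 90.4 (SD, n = 3), and the fold on the log2 scale was 1.70 (log2 fold change 0.76, standard error 0.10, adjusted p = 2.02e-07). The log2 fold change was 0.90 without that replicate and 0.68 to 0.79 without any other. *Csf2rb* had values of 1425, 1401 and 1388 in *Ltbr*-/- and 976, 986 and 1060.0 in Ly5.1 cells, with no overlap and means of 1405 ± 18.9 and 1007 ± 46.1 (SD, n = 3). It rose 1.40-fold (log2 fold change 0.48, standard error 0.09, adjusted p = 5.05e-05), below the 1.5-fold threshold of a call. Without a filter on low values, *Csf2rb* still passed (adjusted p = 0.0135) and *Csf2rb2* did not (adjusted p = 0.063).

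The β chain genes lie next to each other in opposite orientation on chromosome 15 of GRCm38.p6, *Csf2rb2* at chr15:78282507-78305721 on the minus strand and *Csf2rb* at chr15:78325800-78351001 on the plus strand. Their coding sequences are 95.2% identical over 2628 aligned bases, with a longest identical run of 242 bases, so that some reads of 76 bases cannot be assigned to one of them: 10.5% of the 76-base windows of the *Csf2rb* transcript also occur in *Csf2rb2*, and 10.9% the other way round. A stretch of one read length in which the genes differ most is shown with the differing bases in capitals (14 of 76), on the coding strand from exon 5 of *Csf2rb* (chr15:78338898-78338973, plus strand) and exon 4 of *Csf2rb2* (chr15:78294358-78294433, minus strand), and after it a stretch that both genes share, from exon 8 of *Csf2rb* (chr15:78341391-78341466) and exon 7 of *Csf2rb2* (chr15:78291843-78291918).
Csf2rb, most different window: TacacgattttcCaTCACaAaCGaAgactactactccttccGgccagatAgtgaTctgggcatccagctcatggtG
Csf2rb2, most different window: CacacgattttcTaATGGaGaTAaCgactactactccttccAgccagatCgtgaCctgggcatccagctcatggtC
Csf2rb and Csf2rb2, identical window: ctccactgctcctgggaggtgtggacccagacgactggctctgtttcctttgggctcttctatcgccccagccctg

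Since shared reads make the 2 values uncertain, their sum was also tested in their place, an alternative chosen after the data had been seen. It rose in *Ltbr*-/- cells by 0.58 on the log2 scale, with a standard error of 0.08 and an adjusted p = 1.29e-06. Its fold of 1.497 lay just below the 1.5-fold threshold, so that none of the 32 receptor values then tested was called, although 8 passed and 11 had an unadjusted p under 0.05 in limma. The ratio of *Csf2rb2* to *Csf2rb* within a sample was 0.627, 0.647 and 0.612 in the *Ltbr*-/- replicates and 0.474, 0.490 and 0.593 in the Ly5.1 replicates. The ratios did not overlap, and the highest Ly5.1 ratio, that of replicate 3, lay close to the lowest *Ltbr*-/- ratio (exact permutation p = 0.1).

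*Il3ra*, the α chain that recognizes IL-3, rose with the β chains. Its values were 1164, 992 and 1149 in *Ltbr*-/- and 773, 723 and 894 in Ly5.1 cells, with no overlap, and the means 1102 ± 95.1 and 797 ± 87.5 (SD, n = 3) differed 1.38-fold (log2 fold change 0.47, standard error 0.09, adjusted p = 3.25e-04; adjusted p = 0.132 without a filter on low values). *Csf2ra*, the α chain that recognizes GM-CSF, did not. Its values were 689.6, 715 and 697 in *Ltbr*-/- and 837, 749.6 and 777 in Ly5.1 cells, lower in each *Ltbr*-/- replicate than in any Ly5.1 replicate, and its log2 fold change of −0.17 had a 95% interval from −0.35 to 0.01 (adjusted p = 0.222). The ratio of *Il3ra* to *Csf2ra* within a sample was 1.69, 1.39 and 1.65 in *Ltbr*-/- cells and 0.924, 0.965 and 1.15 in Ly5.1 cells (exact permutation p = 0.1). The α chain for IL-5, *Il5ra*, stood at 2.54 to 2.63 and was not tested, so that 3 of the 4 tested genes of this family rose and its median log2 fold change was 0.48.

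The regions around the start sites of *Csf2rb2* and *Il3ra* are shown because these genes rose together; *Csf2rb* was not among the RefSeq promoters used. They run from 250 bases before to 50 bases after a start site in RefSeq for GRCm38.p6. The windows lie at chr15:78305672-78305971 on the minus strand and chr14:14346245-14346544 on the plus strand. For *Il3ra* the start site used lies within the gene, whose RefSeq start is at 14345912. Of the 46 receptor genes 37 had at least 1 such entry, 43 in all. Both strands were searched for GGAAGT (an Ets core), TTCNNNGAA (the GAS palindrome to which STAT factors bind), AGATAA (bound by Gata factors) and TGTGGT (bound by Runx factors), and matches are in capitals. *Csf2rb2* holds a GAS match that begins 15 bases before the start site and an Ets core on the opposite strand that begins 27 bases after it. *Il3ra* holds an Ets core that begins 139 bases before the start site of its window. Among 32851 RefSeq promoters of this length 23.8% held GGAAGT, 8.30% TTCNNNGAA, 11.2% AGATAA and 16.8% TGTGGT, and among the 43 of receptor genes 16, 6, 8 and 9 did.
Csf2rb2, promoter: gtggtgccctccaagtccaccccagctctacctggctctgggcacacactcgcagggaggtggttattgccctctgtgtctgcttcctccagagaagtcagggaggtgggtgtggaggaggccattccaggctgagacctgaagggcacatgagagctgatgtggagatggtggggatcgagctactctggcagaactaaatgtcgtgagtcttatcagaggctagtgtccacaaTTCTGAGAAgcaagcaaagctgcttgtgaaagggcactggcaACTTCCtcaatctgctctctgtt
Il3ra, promoter: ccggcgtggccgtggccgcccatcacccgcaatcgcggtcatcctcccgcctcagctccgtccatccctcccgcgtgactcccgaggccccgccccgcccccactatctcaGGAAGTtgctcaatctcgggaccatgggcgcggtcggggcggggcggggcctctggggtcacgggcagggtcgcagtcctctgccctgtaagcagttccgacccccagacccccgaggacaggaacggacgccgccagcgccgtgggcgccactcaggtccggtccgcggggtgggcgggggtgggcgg

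Among 29 tested genes that carry the signals of these receptors, 1 was called, *Cish*, against 2.78% of all tested genes. It encodes an inhibitor that STAT5 induces downstream of IL-3 and other cytokines. *Cish* had values of 860.3, 903 and 994 in *Ltbr*-/- and 606, 522 and 656 in Ly5.1 cells, with no overlap, and rose 1.55-fold (log2 fold change 0.63, standard error 0.10, adjusted p = 3.34e-06). Another inhibitor, *Socs1*, rose less, from 70.8, 68.2 and 67.6 in Ly5.1 cells to 79.2, 80.5 and 83.4 in *Ltbr*-/- cells (log2 fold change 0.23, standard error 0.07, adjusted p = 0.0179), whereas *Socs2* and *Socs3* had log2 fold changes of −0.05 and −0.02 and did not pass. *Stat5a* and *Stat5b*, the STAT factors of the β chain, had log2 fold changes of −0.04 (adjusted p = 0.79) and −0.17 (adjusted p = 0.2). The kinase of the β chain, *Jak2*, had −0.10 (adjusted p = 0.541). Signaling genes that fell included *Jak1* (log2 fold change −0.29, standard error 0.07, adjusted p = 0.00498) and *Stat3* (log2 fold change −0.25, standard error 0.09, adjusted p = 0.0444). The 29 genes had a median log2 fold change of −0.11, and 25 had an estimate below 0, as had 7029 of all 13108 tested genes.

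Of the ligands of the β chain family, *Csf2* and *Il5* were listed at 1 in every sample. *Il3* had values of 12.4 to 13.3 and was not tested. Its transcript is short, and at 20.4 per kb it lay above some tested receptor genes, such as *Il6ra* (17.6). Of 12 mast cell and basophil markers 9 were tested, 3 rose, 1 fell and 5 did not pass (median log2 fold change 0.06). *Cma1*, *Cyp11a1* and *Cpa3*, which encode mast cell chymase, a steroid-synthesis enzyme and carboxypeptidase A3, rose (log2 fold changes 1.32, 1.32 and 0.56) and *Prss34* fell (−0.41). The summed value of the 12 was 15309 to 16474 in the *Ltbr*-/- replicates and 7253 to 8132 in the Ly5.1 replicates. *Cma1* and *Cyp11a1* made up most of it, at 12677 to 13886 and 4834 to 5597 together, and the other 10 markers summed to 2562 to 2632 in *Ltbr*-/- and 2254 to 2535 in Ly5.1 replicates. The defining IgE receptor genes *Fcer1a* and *Ms4a2* were low in both genotypes (37.8 to 45.8 and 28.4 to 34.6) and did not pass, the tryptase gene *Tpsb2* was listed at 1 in every sample, and *Tpsab1* and *Mcpt4* stayed between 4.82 and 5.78. By comparison, *Mcpt8*, at 350 to 561, and *Hdc*, at 211 to 286, had higher values and did not pass either (log2 fold changes −0.22 and 0.10). The part of mast cells and basophils in the higher β chain and *Il3ra* values was not tested.

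**Figure D5:**
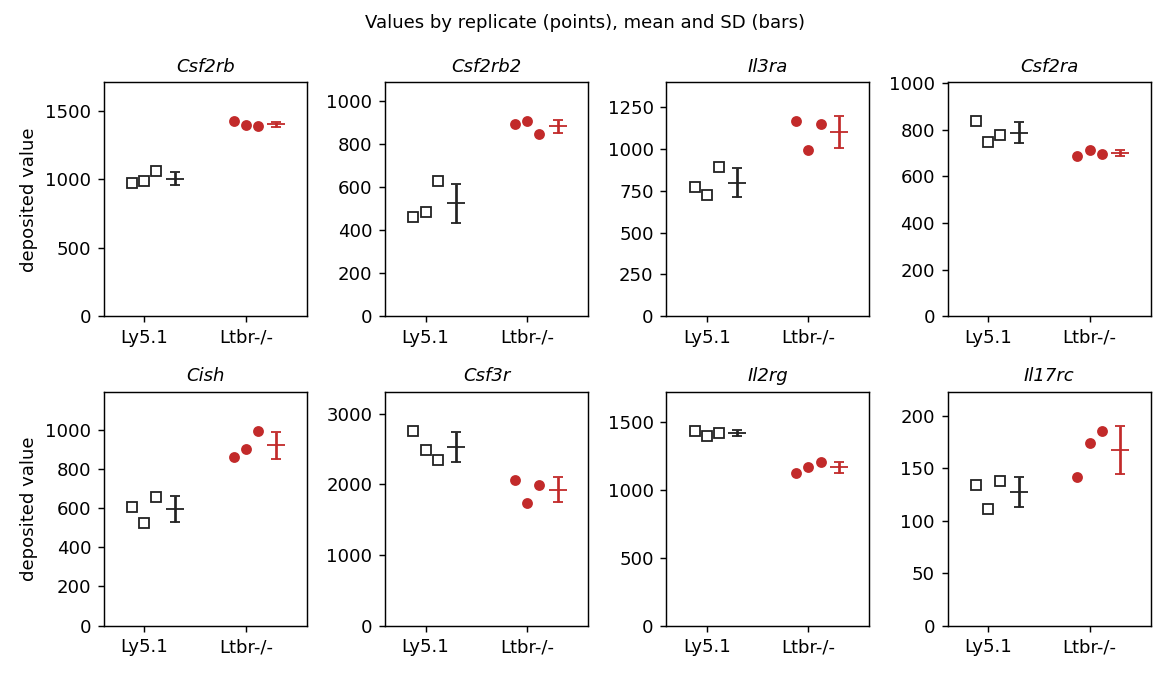
Deposited value of 8 genes in the 3 Ly5.1 replicates (open squares) and the 3 *Ltbr*-/- replicates (red circles), each axis from 0, with the mean and SD beside the points. *Csf2rb*, *Csf2rb2*, *Il3ra*, *Cish* and *Il17rc* were higher in every *Ltbr*-/- replicate, and *Csf2ra*, *Csf3r* and *Il2rg* lower.

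In contrast, *Csf3r*, the G-CSF receptor, which drives neutrophil production, was lower in *Ltbr*-/- cells. Its values were 2055, 1729.7 and 1996 in *Ltbr*-/- and 2759.7, 2487 and 2349 in Ly5.1 cells. The groups did not overlap, and *Ltbr*-/- replicate 2 was the lowest of the 6. The means of 1927 ± 174 and 2532 ± 209 (SD, n = 3) correspond to a level 1.31-fold higher in Ly5.1 cells (log2 fold change −0.39, standard error 0.09, adjusted p = 8.62e-04; 0.143 without a filter on low values). Neutrophil transcripts were also lower in *Ltbr*-/- cells. All 11 neutrophil markers were tested, 9 fell and none rose (median log2 fold change −0.39), and their summed value was 43085 to 43600 in the *Ltbr*-/- replicates and 56442 to 60873 in the Ly5.1 replicates. The granule genes *Mpo* (−0.39), *Elane* (−0.31) and *Camp* (−0.57) and the calprotectin gene *S100a9* (−0.47) were among them, and *Ly6g*, which marks mature neutrophils, was near the lowest tested values in both genotypes (18.5 to 21.1). The ratio of *Csf3r* to *Mpo* was 0.194 ± 0.0244 in *Ltbr*-/- cells and 0.195 ± 0.0208 in Ly5.1 cells (SD, n = 3; exact permutation p = 0.8), and the ratio to *S100a9* was 0.192 ± 0.0190 and 0.182 ± 0.0249 (p = 0.7). These ratios only restate the fold changes, because *Mpo* and *S100a9* changed about as much as *Csf3r*. Other markers of the list changed less, as *Prtn3* (−0.24), or more, as *Camp*. The part of neutrophil transcripts in the lower *Csf3r* value was not tested. Its ligand gene *Csf3* was listed at 1 in every sample.

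*Csf1r*, the CSF-1 receptor and a marker of the monocyte lineage, had values of 434, 403 and 459 in *Ltbr*-/- and 573, 528 and 462 in Ly5.1 cells. Its log2 fold change of −0.27 did not pass (adjusted p = 0.0593), but passed without Ly5.1 replicate 3, the lowest Ly5.1 sample (−0.35, adjusted p = 0.0155). Of 7 tested monocyte and macrophage markers *Emr1* and *Cd68* rose (log2 fold changes 0.83 and 0.28) and *Lyz2* fell (−0.42). The summed value of the 10 in the files was 5667 to 6354 in *Ltbr*-/- and 6099 to 6679 in Ly5.1 replicates, and their part in the *Csf1r* value was not tested. The ligand genes *Csf1* and *Il34* had log2 fold changes of 0.15 (adjusted p = 0.226) and 0.20 (adjusted p = 0.0242).

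Of the 8 tested genes of the gp130 and IL-12 family *Csf3r* and *Il11ra1* fell, and 7 had estimates below 0. *Il11ra1*, the IL-11 receptor α chain, had values of 503, 553 and 543 in *Ltbr*-/- and 622, 629 and 669 in Ly5.1 cells (log2 fold change −0.26, standard error 0.09, adjusted p = 0.0448). No values overlapped, but the adjusted p rose above the threshold whenever a replicate was left out: 0.176, 0.0651 and 0.0921 without *Ltbr*-/- replicates 1, 2 and 3, and 0.0659, 0.0757 and 0.123 without Ly5.1 replicates 1, 2 and 3. Its copy *Il11ra2* had −0.03 (adjusted p = 0.857). All 76-base windows of *Il11ra2* and 38.1% of those of *Il11ra1* also occur in *Gm13305*, so that both values are uncertain. *Il6ra*, which recognizes IL-6, had values of 128 to 168 over the 6 samples and a log2 fold change of −0.08 (adjusted p = 0.65). *Il27ra* had values of 987, 901 and 773 in *Ltbr*-/- and 1019, 943 and 834 in Ly5.1 cells, which overlapped (−0.07, adjusted p = 0.679). The IL-12 receptor chains *Il12rb1* and *Il12rb2* had −0.08 and −0.05, and *Il31ra* 0.01. The shared chain gp130, encoded by *Il6st* outside the symbol rule, was lower, at 311, 289 and 296 in *Ltbr*-/- cells and 378, 398 and 333 in Ly5.1 cells (log2 fold change −0.30, standard error 0.10, adjusted p = 0.0254).

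The common γ chain was the 1 gene of 7 tested in its family that passed. *Il2rg* had values of 1125, 1167 and 1202 in *Ltbr*-/- and 1434, 1392 and 1419.7 in Ly5.1 cells, with narrow and separate groups, and fell in *Ltbr*-/- cells (log2 fold change −0.28, standard error 0.08, adjusted p = 0.0187; means 1165 ± 38.9 and 1415 ± 21.5, SD, n = 3). The adjusted p was 0.0816 without *Ltbr*-/- replicate 1, 0.0555 without *Ltbr*-/- replicate 2 and 0.0572 without Ly5.1 replicate 1. *Gm20489* shares 41.1% of the 76-base windows of *Il2rg*. The partner chains did not pass. *Il4ra*, a chain of the IL-4 and IL-13 receptors, had values of 731, 844 and 823 in *Ltbr*-/- and 750.1, 738 and 809 in Ly5.1 cells (0.06, adjusted p = 0.727). Its neighbour on chromosome 7, the IL-21 receptor *Il21r*, had values of 392, 367 and 396 in *Ltbr*-/- and 368, 369.8 and 373 in Ly5.1 cells (0.06, adjusted p = 0.749). *Il2rb*, the signaling β chain for IL-2 and IL-15, stood at 123, 112 and 118 in *Ltbr*-/- and 131, 119 and 119 in Ly5.1 cells (−0.07, 95% interval −0.23 to 0.10). It lies at chr15:78479256-78511621, beyond *Csf2rb* in the same stretch of chromosome 15. *Il2ra* (0.11, adjusted p = 0.203) and *Il15ra* (−0.07, adjusted p = 0.707), the α chains for IL-2 and IL-15, and *Il13ra1* (0.0038, adjusted p = 0.968) did not pass either. None of 7 tested T, NK and innate lymphoid cell markers passed in limma, and none passed at an unadjusted p under 0.05, and the summed value of the 12 listed was 1489 to 1605 in *Ltbr*-/- and 1555 to 1702 in Ly5.1 replicates.

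The IL-17 receptor family moved in both directions. Of its 5 genes 4 were tested, 1 rose and 2 fell. *Il17rc*, a chain of the IL-17A and IL-17F receptor, had values of 142, 174 and 186 in *Ltbr*-/- and 134, 111 and 138 in Ly5.1 cells and rose (log2 fold change 0.39, standard error 0.10, adjusted p = 0.00442). The lowest *Ltbr*-/- and the highest Ly5.1 value lay close together, and the adjusted p was 0.0671 without *Ltbr*-/- replicate 3 and 0.0776 without Ly5.1 replicate 2. *Il17re*, the chain for IL-17C, lies beside it on chromosome 6 (*Il17re* at chr6:113458699-113470758, *Il17rc* at chr6:113471455-113483163) and fell, with values of 100.1, 88.6 and 97.0 in *Ltbr*-/- and 115, 117 and 112 in Ly5.1 cells (log2 fold change −0.27, standard error 0.08, adjusted p = 0.0158; adjusted p = 0.112 without *Ltbr*-/- replicate 2 and 0.0567 without Ly5.1 replicate 2). The ratio of *Il17rc* to *Il17re* within a sample was 1.42, 1.97 and 1.92 in *Ltbr*-/- and 1.16, 0.949 and 1.23 in Ly5.1 cells (exact permutation p = 0.1). *Il17rb*, the IL-25 receptor, fell at a low level, 25.2, 25.1 and 26.6 in *Ltbr*-/- and 28.3, 29.0 and 28.2 in Ly5.1 cells (log2 fold change −0.15, standard error 0.04, adjusted p = 0.0176), and its adjusted p was 0.0762 without *Ltbr*-/- replicate 1, 0.0828 without *Ltbr*-/- replicate 2 and 0.0675 without Ly5.1 replicate 2. *Il17ra*, the chain common to these receptors and the one with the highest level per kb among them, had values of 1741, 1571 and 1526 in *Ltbr*-/- and 2024, 1811 and 1819.9 in Ly5.1 cells. It did not pass (log2 fold change −0.23, standard error 0.08, adjusted p = 0.0687), but did without *Ltbr*-/- replicate 1 (−0.28, adjusted p = 0.0472). *Traf3ip2*, which encodes the adaptor Act1 of these receptors, rose (log2 fold change 0.31, standard error 0.08, adjusted p = 0.00869), while *Traf6*, the ligase it recruits, had −0.10 (adjusted p = 0.605).

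*Il17ra* was the receptor gene closest to the targeted locus, 4.82 Mb from *Ltbr* on chromosome 6, and the only one within 10 Mb. *Il17rc* and *Il17re* lay 11.8 Mb away. Around *Ptprc*, the CD45 gene, no receptor gene lay that close. Sequence differences between the donors at these loci were not analysed here.

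None of the 7 tested genes of the IL-1 and IL-18 family passed in limma, and none passed at an unadjusted p under 0.05. Of these *Il1r1*, *Il1rl2*, *Il1rl1*, *Il18r1* and *Il18rap* lie with *Il1r2* in a cluster on chromosome 1, between 40084692 and 40551707. *Il1rap*, the accessory chain shared by the IL-1 and IL-33 receptors, had values of 138, 133 and 154 in *Ltbr*-/- and 156, 141 and 147 in Ly5.1 cells (−0.07, adjusted p = 0.685). *Il1r1*, the signaling IL-1 receptor, stood at 49.5, 45.2 and 44.2 in *Ltbr*-/- and 48.7, 44.4 and 42.4 in Ly5.1 cells (0.04, adjusted p = 0.749), and the decoy *Il1r2* at 23.5 to 29.1 over the 6 samples (−0.05, adjusted p = 0.624). The groups overlapped in each. The IL-33 receptor *Il1rl1* had 32.4 to 36.6 (−0.0013, 95% interval −0.11 to 0.11), the IL-36 receptor *Il1rl2* 58.1 to 67.6 (0.06), and the IL-18 receptor chains *Il18r1* and *Il18rap* 48.1 to 54.3 (0.01) and 156 to 204 (−0.07). The adaptor *Myd88* and the kinases *Irak1* and *Irak4* had log2 fold changes of −0.16, −0.11 and −0.22 and did not pass.

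Of the 7 class II receptors 2 were tested. *Il10ra*, which recognizes IL-10, had values of 169, 160.3 and 147 in *Ltbr*-/- and 165, 156 and 143 in Ly5.1 cells (0.04, adjusted p = 0.829). *Il10rb*, the chain shared by the IL-10, IL-22 and interferon λ receptors, had values of 365, 403 and 339.9 in *Ltbr*-/- and 487, 373 and 444 in Ly5.1 cells. It did not pass (log2 fold change −0.23, standard error 0.10, adjusted p = 0.129), but did without Ly5.1 replicate 2, the lowest Ly5.1 sample (−0.34, adjusted p = 0.0363), and 28.0% of its 76-base windows also occur in *Gm21970*. The partner chains for IL-20 and IL-22, *Il20ra*, *Il20rb* and *Il22ra1*, and for interferon λ, *Il28ra*, were too low to be tested.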

How the data were processed

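Total RNA of FACS-purified LT/ST-HSCs was made into stranded mRNA libraries and sequenced in single reads of 76 bases. SeqMan NGen was used by the authors for assembly and ArrayStar for quantification, with regularized log values from Bioconductor; the submitters' processing notes name DESeq2, GRCm38 and mm10. The deposited signal is never negative and was taken, from its values, as 2 to the power of the regularized log. Of the tests planned for several possible units, that for log2 values applied. The files hold no counts, so depth is unknown and no counting interval was computed.

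Groups came from the sample titles. Of 26595 rows, the row with the highest mean was kept for repeated symbols, giving 26216 names, of which the upper 50% by mean log2 value went into limma 3.58.1 (R 4.3.3), with moderation along a mean-variance trend and no pseudocount. The fit was tested on simulated data. The exact two-sided permutation test compared means of log2 values. Every tested receptor gene could be named; of the other lists, the called genes, those with the 3 highest levels per kb, and genes of known role chosen after their values were seen; some genes of those lists are not reported here. The receptors, lists, motifs and tests were chosen with earlier results of these data known. Transcripts came from GENCODE M21 (GRCm38; 24532 names matched), positions and promoters from RefSeq for GRCm38.p6. How shared reads were assigned, and whether strand was used in counting, is not given in the sources used here. Alternatives were other filters, scalings, variance models, thresholds, a replicate block, the mean over repeated symbols, log2 of the value plus 1 and leaving out each sample.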

Additional observations from a re-analysis of the deposited data

How the results depend on the processing

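The number of called receptor genes stayed at 1 under every alternative except no filter on low values (0, although 14 had an unadjusted p under 0.05), no fold threshold (9), a fold of at least 2 (0, with 12 at an unadjusted p under 0.05) and the sum of *Csf2rb* and *Csf2rb2* in place of both genes (0, with 11 at an unadjusted p under 0.05), an alternative chosen after seeing the data. The corresponding thresholds gave 1936 and 42 calls among all genes in place of 364. Without a filter 2 receptor genes, *Csf2rb* and *Il2rg*, and 675 of all genes had an adjusted p under 0.05, in place of 9 and 1936. Leaving out 1 replicate at a time gave 5 to 9 receptor genes and 1253 to 1999 of all genes; the lowest counts came without *Ltbr*-/- replicate 2 and without *Ltbr*-/- replicate 3. The median log2 fold change of the receptor genes was −0.05, −0.016 without a filter, −0.17 in the upper 25% of names, and −0.070 to −0.0094 without 1 replicate. *Csf2rb* passed in each alternative and *Csf2rb2*, *Il3ra* and *Csf3r* in each except no filter. *Il11ra1* (adjusted p = 0.0533 with robust moderation) and *Il17rb* (0.148 without a trend) were the least stable, and *Il17ra* passed after quantile normalization (0.0285) and in the upper 25% of names (0.032). *Csf1r* passed in the upper 25% of names (0.0395). The cause of these changes was not tested. The mean transcript length put 12 in place of 13 receptor genes above the median level. No scaling moved the median of all genes by over 0.1. Whether samples with the same replicate number came from the same chimeras is not given in the sources used here, and the number was not taken as a pairing: their deviations from the group means correlated with r = 0.03, −0.01 and 0.09. With the replicate number as a block 10 receptor genes passed in place of 9, *Il17ra* being the addition (adjusted p = 0.0474), and 1 was called.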

Other observations

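A list of 20 genes outside the symbol rule held cytokine receptors, among them the stem cell factor and FLT3 ligand receptors, and related genes such as *Ebi3*. Of these genes 15 were tested. *Kit* and *Crlf2* were among those with the highest levels, at 1085 and 757 per kb over the 6 samples. *Kit*, the receptor for stem cell factor, had values of 5449.5, 5551 and 5179 in *Ltbr*-/- and 5991, 6103 and 5849 in Ly5.1 cells (log2 fold change −0.15, standard error 0.07, adjusted p = 0.154). It was lower in each *Ltbr*-/- replicate and did not pass. *Flt3*, the receptor for FLT3 ligand, fell from 902, 927 and 919.8 in Ly5.1 to 705, 863 and 705 in *Ltbr*-/- cells (log2 fold change −0.28, standard error 0.09, adjusted p = 0.0355), as did *Il6st*. *Ebi3*, the soluble subunit of IL-27 and IL-35, rose from 468, 398 and 524 to 538, 618 and 589 (log2 fold change 0.33, standard error 0.10, adjusted p = 0.0184). *Crlf2*, the TSLP receptor, had a log2 fold change of 0.03 while its partner chain *Il7r* was not tested. The median of the 15 genes was −0.04.

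Of 40 ligand genes 18 were listed at 1 in every sample and 12 were tested, 1 of which passed, *Il34*. Among the tested ligands *Il16*, *Il12a* and *Il18* had the highest levels per kb (303, 170.4 and 116), and none of the 3 passed. Among the signaling genes *Ptpn6*, which encodes the phosphatase SHP-1, *Jak3* and *Jak1* had the highest levels per kb (1886, 989 and 901).

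Markers of the remaining lineages did not move as blocks. Of 4 tested B cell markers *Cd79a* rose (log2 fold change 0.62) and *Ighm* and *Igkc* fell (−1.04 and −1.21). *Epx* rose among 5 tested eosinophil markers (0.71) and *Hba-a1* among 6 erythroid markers (0.99). Of 4 tested megakaryocyte markers *Itga2b* rose (0.31) and *Pf4* fell (−0.33).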
